A study of Mus musculus with 28 samples.

Results

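Collagens are the structural proteins of the extracellular matrix, and each molecule is a triple helix of 3 chains encoded by separate Col genes or by copies of the same gene. The chains described here are the array rows whose annotated gene symbol begins with Col, a number, the letter a and a number, with the brightest row kept for each symbol. Of 30752 named genes, 43 were such chains, and each was measured by exactly 1 of the 65956 rows tested. The annotation gave 42 of them a single symbol and gave Col6a4 together with an older name of the same gene. The row of Col7a1 listed a microRNA as well, so that chain was not analysed here. The 43 comprised 11 fibrillar chains, 6 chains of basement membrane type IV, 6 of beaded filament type VI, 9 fibril-associated chains, 4 transmembrane chains, 3 of the network types VIII and X, 2 multiplexins (types XV and XVIII) and 2 others (types XXVI and XXVIII).

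Total RNA of mouse cortical tissue was measured on MTA 1.0 arrays, 1 array per animal, in 4 groups of 7 mice aged 12 to 15 weeks. The groups were wild type after sham (WT sham), wild type after controlled cortical impact (WT CCI), Rbm5 knockout after sham (KO sham) and Rbm5 knockout after controlled cortical impact (KO CCI), where Rbm5 encodes an RNA-binding regulator of splicing. Controlled cortical impact is a mechanical brain injury, given here at 6 m/s to a depth of 1.2 mm through a craniotomy over the left parietal cortex. Sham mice were anaesthetised without a craniotomy, so the injury comparison holds the opening of the skull as well as the impact. All brains were taken 48 h later after perfusion with cold saline, and each group mixed the sexes, with 4 males in KO sham and 3 in each of the others. The labels do not say whether the knockout was constitutive or limited to some cells.

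In the adult brain most collagen belongs to the vessel wall and the meninges. Type IV chains form the sheet of the basement membrane beneath endothelial cells and around pericytes, and the multiplexins sit in that sheet. Fibroblasts of the meninges and of larger vessels make the fibrillar chains of types I and III and much of type VI, while a few fibril-associated and transmembrane chains are made by neurons. In injured tissue, newly made collagen has to be hydroxylated, folded, cut and crosslinked before it becomes part of a scar, and the genes for those steps were followed beside the chains.

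Values are log2 signal as deposited, and changes are differences of log2 signal with the standard error (SE) of a limma model of the 4 groups with sex as a further term. A chain was said to rise or fall where its limma p, adjusted by the Benjamini-Hochberg method over all 65956 rows, was under 0.05. Levels of different rows depend on their probes, so an order of signal is not an order of RNA abundance. The tissue was measured in bulk, so fewer cells of a type and less RNA per cell cannot be told apart.

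Col4a1 and Col4a2, whose products join in the α1 and α2 trimer of vascular basement membranes, rose after injury in both genotypes, and their genes lie head to head on chromosome 8. Their RefSeq windows of 250 bases before to 50 bases after the annotated start are shown because both chains rose after injury and their starts lie close together. On GRCm38.p6 the Col4a1 window is chr8:11312777-11313076 on the minus strand and the Col4a2 window is chr8:11312555-11312854 on the plus strand. Their annotated starts, at 11312826 for Col4a1 and 11312805 for Col4a2, lie 21 bases apart, so each gene is read across the start of the other. The windows share 78 bases, read on opposite strands. Capitals mark GC boxes (GGGCGG, or CCGCCC on the other strand) and CCAAT boxes (CCAAT, or ATTGG on the other strand).
Col4a1: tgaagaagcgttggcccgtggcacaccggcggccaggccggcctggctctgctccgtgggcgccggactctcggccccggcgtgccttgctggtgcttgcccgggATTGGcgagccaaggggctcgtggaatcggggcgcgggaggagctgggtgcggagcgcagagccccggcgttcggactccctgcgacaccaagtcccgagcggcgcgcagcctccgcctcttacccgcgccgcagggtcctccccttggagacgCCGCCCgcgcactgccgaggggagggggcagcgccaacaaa
Col4a2: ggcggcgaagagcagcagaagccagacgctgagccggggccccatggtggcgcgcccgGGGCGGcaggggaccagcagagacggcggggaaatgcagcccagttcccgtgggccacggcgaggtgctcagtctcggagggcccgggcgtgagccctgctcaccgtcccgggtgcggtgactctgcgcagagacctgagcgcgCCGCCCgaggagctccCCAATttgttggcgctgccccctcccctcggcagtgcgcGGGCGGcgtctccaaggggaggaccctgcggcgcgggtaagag
Neither window held TATAAA or TTTATA, and their GC contents were 74.0% for Col4a1 and 73.7% for Col4a2. Over 32851 RefSeq promoter windows of the same length, 35.7% held a GC box, 37.4% a CCAAT box and 13.6% a TATA box, on either strand. Windows were matched for 34 of the 43 chains, of which 21 held a GC box, 12 a CCAAT box and 5 a TATA box. The GC box of Col4a1 and the last GC box of Col4a2 lie in the shared bases and are the same site. A match of letters is a description of the window and not a mapped binding site.

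The genotype labels were checked first, and tissue markers were read beside them. Rbm5 averaged 10.78 ± 0.042 (SD, n = 7) after sham and 10.66 ± 0.063 after injury in wild type, against 9.76 ± 0.065 and 9.75 ± 0.038 in knockout, and the highest knockout array (9.84) lay below the lowest wild type array (10.59). Which part of Rbm5 was removed is not stated in the labels, so the signal that remained cannot be read as a level of functional transcript. The mean signal over 11 measured cortical neuron markers lay between 11.17 and 11.88 on every array. No other tissue was measured for comparison, so this range does not test the labelled tissue. The list means of striatum or choroid plexus markers stood above 8.5 or 6.5 on 7 arrays, which were 2 injured knockout arrays (replicates 22 and 40), 4 injured wild type arrays (replicates 13, 14, 16 and 35) and replicate 25 of WT sham. The 2 highest fibroblast marker means were those of KO CCI replicates 22 (7.49) and 24 (7.51). Each call by injury or genotype was also fitted without the 7 arrays and without the 2 arrays.

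Collagen signal in the cortex was mostly modest. The mean over the 28 arrays ranged from 4.48 for Col10a1 to 7.40 for Col6a1, with a median over the chains of 5.66, against array medians of 5.79 to 5.90. Of the 43 chains, 25 stood below the lowest array median in all 4 groups, 17 stood at or above it in all 4, and Col3a1 stood at or above it in the injured groups only. The array's 23 background control rows, which sample probes of different GC content, averaged 2.63 to 6.59 with a median of 3.62. A small change in a dim row can therefore not be separated from a change in background, and a chain that did not pass the test is not shown to be unexpressed or unaltered.

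The question of the injury comparison within wild type mice is which chains differ 48 h after the impact. Of the 43 chains, 4 rose and 1 fell. Of all rows, 16.8% passed the same test, 8.86% as higher and 7.96% as lower, and of rows with a named gene 22.2% passed. The 4 that rose were Col6a1, Col4a2, Col4a1 and Col3a1, and the 1 that fell was Col19a1. The median change of the chains was -0.02, as was that of all rows (-0.02), and 19 of the 43 changes were above 0. All 5 chains were also called without the 7 arrays high in striatum or choroid plexus markers and without the 2 arrays high in fibroblast markers. The 5 calls among 43 chains did not exceed the background share. After quantile normalization 4 chains rose and 3 fell, and after centring each array on its median 4 rose and 2 fell.

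In Rbm5 knockout mice 8 chains rose and 1 fell. Of all rows, 16.7% were called, 8.43% as higher and 8.27% as lower, and of rows with a named gene 21.3% were called, so that 9 of 43 is a share near the background. Col6a1, Col4a1, Col4a2 and Col3a1 rose and Col19a1 fell here too, and Col6a2, Col6a3, Col18a1 and Col16a1 were called higher in addition. The median change of the chains was 0.06, with 37 of 43 above 0, against 57.8% of rows with a named gene above 0. That count depended on scale, since 30 changes were above 0 after quantile normalization and 31 after centring each array on its median. Those settings also left only 4 chains called, Col6a1, Col4a1, Col4a2 and Col19a1, so the additional knockout calls and that of Col3a1 rest on the deposited scale.

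Some knockout calls were also lost when the arrays that stood apart by their markers were left out. Without the 7 arrays high in striatum or choroid plexus markers, the calls of Col3a1, Col18a1, Col6a2 and Col6a3 were lost, at limma adjusted p of 0.0775, 0.0621, 0.190 and 0.181. Without the 2 arrays high in fibroblast markers, those of Col3a1 and Col6a3 were lost, at limma adjusted p of 0.0685 and 0.083. Col4a1, Col4a2, Col6a1, Col16a1 and Col19a1 were called in both of these fits. These fits also hold fewer arrays, and the part of the marker signals in the lost calls was not tested.

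**Figure D1:**
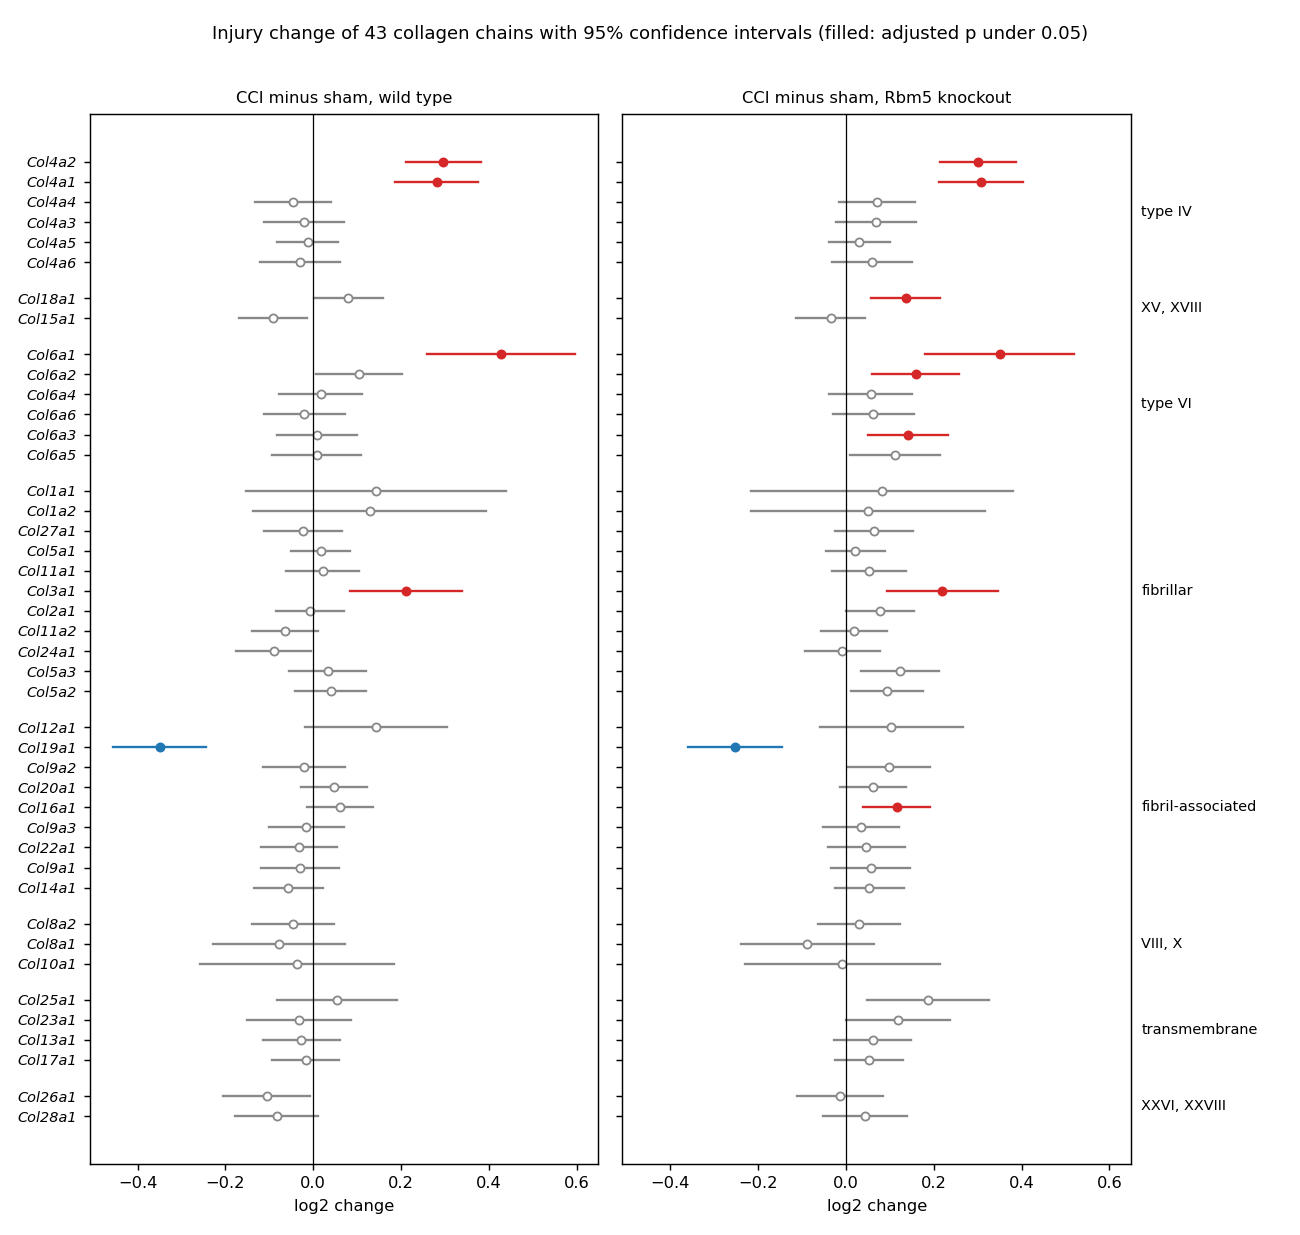
Change in log2 signal after injury for the 43 collagen chains in wild type (left) and Rbm5 knockout (right) mice, by class and in order of mean signal, as CCI minus sham with 95% confidence intervals from limma. Filled red points passed the test as higher and filled blue points as lower, with 5 in wild type and 9 in knockout, and Col4a1, Col4a2, Col6a1, Col3a1 and Col19a1 are filled on both sides.

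Among the type IV chains, Col4a1 and Col4a2 rose in both genotypes. Col4a1 ran from 6.15 through a median of 6.23 to 6.28 in WT sham and from 6.31 through 6.53 to 6.60 in WT CCI. In knockout it ran from 6.05 through 6.15 to 6.24 after sham and from 6.36 through 6.47 to 6.61 after injury. Every injured array lay above every sham array of its genotype. The change was 0.28 in wild type (SE 0.046, 1.22-fold, limma adjusted p = 4.23e-05, n = 7 per group) and 0.31 in knockout (SE 0.046, 1.24-fold, limma adjusted p = 1.86e-05).

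Col4a2 ran from 6.63 through a median of 6.68 to 6.80 in WT sham and from 6.84 through 7.00 to 7.11 in WT CCI. In knockout it ran from 6.48 through 6.56 to 6.63 after sham and from 6.76 through 6.90 to 6.92 after injury. The injured and sham arrays did not overlap in either genotype, and most knockout sham arrays lay below the lowest wild type sham array. Col4a2 rose by 0.30 in wild type (SE 0.042, 1.23-fold, limma adjusted p = 5.33e-06) and by 0.30 in knockout (SE 0.042, 1.23-fold, limma adjusted p = 6.9e-06). The rises of Col4a1 and Col4a2 in wild type and of Col4a1 in knockout kept their call under each alternative run. Within titles 1 to 24 and 25 to 42 Col4a1 rose by 0.23 and 0.35 in wild type and by 0.30 and 0.31 in knockout. For Col4a2 the values were 0.28 and 0.31 in wild type and 0.33 and 0.25 in knockout, where the call was lost in titles 25 to 42 (limma adjusted p = 0.0869) and under no other alternative.

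The 4 other type IV chains, which build the basement membranes of the kidney glomerulus, lens and inner ear, were not called in either genotype. Col4a3, Col4a4, Col4a5 and Col4a6 averaged 4.67 to 5.49 over the arrays. Their injury changes lay between -0.05 and -0.01 in wild type and between 0.03 and 0.07 in knockout. All 4 stood below the lowest array median in each group.

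Col18a1, the multiplexin of vascular basement membranes whose end fragment is endostatin, ran from 5.49 through a median of 5.55 to 5.62 in WT sham and from 5.54 through 5.61 to 5.71 in WT CCI. In knockout it ran from 5.46 through 5.51 to 5.58 after sham and from 5.56 through 5.68 to 5.70 after injury. The injured and sham arrays overlapped in both genotypes, by 1 injured array in knockout, KO CCI replicate 21. The change was 0.08 in wild type (SE 0.038, limma adjusted p = 0.18) and 0.14 in knockout (SE 0.039, 1.10-fold, limma adjusted p = 0.0134). The knockout call was lost after quantile normalization (limma adjusted p = 0.0687), after centring on array medians (0.0662), without the 7 arrays (0.0621) and in each run of titles alone (0.156 in titles 1 to 24 and 0.342 in titles 25 to 42). Col15a1, the other multiplexin, changed by -0.09 in wild type (limma adjusted p = 0.0987) and by -0.03 in knockout, and neither was called.

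Type VI chains form the beaded filaments that tie basement membranes to the surrounding matrix, and Col6a1 encodes the α1 chain that every such molecule contains. Col6a1 ran from 7.07 through a median of 7.09 to 7.26 in WT sham and from 7.35 through 7.49 to 7.87 in WT CCI. In knockout it ran from 7.11 through 7.28 to 7.40 after sham and from 7.35 through 7.59 to 8.06 after injury. The wild type groups did not overlap, and in knockout only KO CCI replicate 24 lay within the range of the sham arrays. Col6a1 rose by 0.43 in wild type (SE 0.083, 1.34-fold, limma adjusted p = 0.000343) and by 0.35 in knockout (SE 0.083, 1.27-fold, limma adjusted p = 0.00314).

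The highest Col6a1 signals of WT CCI came from replicates 16, 35 and 13, where the mean of 8 striatum markers was 9.19, 9.52 and 8.85, while the other 4 injured wild type arrays had means between 6.94 and 7.19. In KO CCI the highest were replicate 23, with a striatum mean of 8.22, and replicate 22, with 8.92, but replicate 40, with the highest mean of 9.66, measured 7.55 for Col6a1. None of the 8 striatum markers was called by injury in either genotype, and their list means ran from 7.07 to 7.57 in WT sham, 6.94 to 9.52 in WT CCI, 7.09 to 8.14 in KO sham and 6.97 to 9.66 in KO CCI. Without the 7 arrays named above for striatum or choroid plexus markers, Col6a1 rose by 0.34 in wild type (limma adjusted p = 0.027) and by 0.30 in knockout (limma adjusted p = 0.0235). Within titles 1 to 24 and 25 to 42 its change was 0.41 and 0.45 in wild type and 0.38 and 0.33 in knockout, and only the wild type change in titles 25 to 42 passed the test there.

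The partner chains of Col6a1 gave smaller estimates. Col6a2 ran from 5.90 through 5.93 to 6.00 in WT sham, from 5.97 through 6.06 to 6.12 in WT CCI, from 5.84 through 5.95 to 6.09 in KO sham and from 5.97 through 6.10 to 6.30 in KO CCI, with overlap in both genotypes. Its change was 0.10 in wild type (SE 0.048, limma adjusted p = 0.158) and 0.16 in knockout (SE 0.048, limma adjusted p = 0.0214). Col6a3, the long chain that completes the common type VI molecule, ran from 5.35 through 5.39 to 5.46 in WT sham, from 5.30 through 5.42 to 5.51 in WT CCI, from 5.27 through 5.31 to 5.45 in KO sham and from 5.39 through 5.45 to 5.61 in KO CCI. These groups overlapped in both genotypes too. Its change was 0.01 in wild type (SE 0.044) and 0.14 in knockout (SE 0.044, limma adjusted p = 0.0269).

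Neither of the last calls was stable. The Col6a2 call in knockout was lost without KO sham replicate 12, KO CCI replicate 22 or KO CCI replicate 23, with adjusted p up to 0.0667. The Col6a3 call was lost without any of KO sham replicates 10, 11 and 12 and KO CCI replicates 22, 23 and 40, with adjusted p up to 0.0821. Without the 7 arrays high in striatum or choroid plexus markers the changes were 0.12 for Col6a2 and 0.10 for Col6a3 (limma adjusted p = 0.19 and 0.181), and with only the arrays compared the limma adjusted p was 0.0996 and 0.0597. Without the 2 arrays high in fibroblast markers Col6a2 was still called, and Col6a3 was not (limma adjusted p = 0.083). Neither was called in either run of titles alone. Col6a4, Col6a5 and Col6a6 were not called, with changes between -0.02 and 0.02 in wild type and between 0.06 and 0.11 in knockout.

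**Figure D2:**
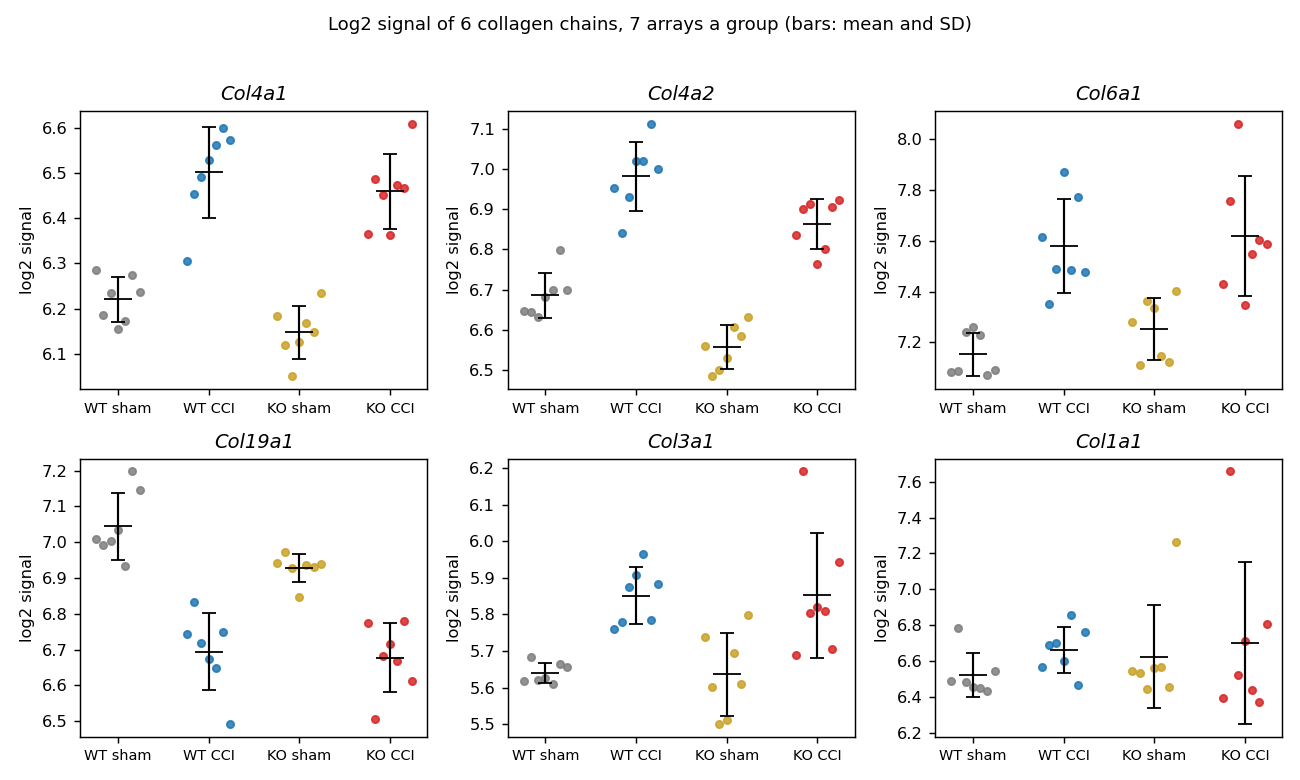
Log2 signal of 6 collagen chains on each of the 28 arrays, by group, with points for single arrays, a horizontal bar for the mean and an error bar for the SD (n = 7). Injured arrays lie above sham arrays without overlap in both genotypes for Col4a1 and Col4a2 and below them for Col19a1, while Col1a1 overlaps throughout and has 1 array at 7.26 in KO sham and 1 at 7.66 in KO CCI. Each panel has its own vertical scale.

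Of the 11 fibrillar chains, only Col3a1, the homotrimeric chain of reticular fibres, was called. It ran from 5.61 through a median of 5.63 to 5.68 in WT sham and from 5.76 through 5.88 to 5.97 in WT CCI. In knockout it ran from 5.50 through 5.61 to 5.80 after sham and from 5.69 through 5.81 to 6.19 after injury. The wild type groups were apart and the knockout groups overlapped. Col3a1 rose by 0.21 in wild type (SE 0.062, 1.16-fold, limma adjusted p = 0.016) and by 0.22 in knockout (SE 0.062, 1.16-fold, limma adjusted p = 0.0129). Without the 2 arrays high in fibroblast markers the knockout change was 0.15 (limma adjusted p = 0.0685), and the wild type change stayed at 0.21. Within titles 1 to 24 and 25 to 42 the change was 0.19 and 0.23 in wild type and 0.29 and 0.11 in knockout, none of which passed the test.

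Type I collagen, the main protein of scar and bone, did not pass the test in either genotype. Col1a1, the brightest fibrillar row, ran from 6.44 through 6.49 to 6.79 in WT sham, from 6.47 through 6.69 to 6.86 in WT CCI, from 6.45 through 6.55 to 7.26 in KO sham and from 6.37 through 6.53 to 7.66 in KO CCI. The groups overlapped across their whole ranges. The change was 0.14 in wild type, with a 95% confidence interval of -0.15 to 0.44, and 0.08 in knockout, with an interval of -0.22 to 0.38. Col1a2, its partner in the type I trimer, changed by 0.13 (interval -0.14 to 0.39) and 0.05 (interval -0.22 to 0.32). In both genotypes these intervals were the widest of the 43 chains, so a rise as large as that of Col3a1 lies inside them.

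Single arrays stood apart in both knockout groups. KO sham replicate 33 measured 7.26 for Col1a1 and 6.88 for Col1a2, and KO CCI replicate 22 measured 7.66 and 7.32, while the next highest arrays of their groups measured 6.57 and 6.43, and 6.81 and 6.52. The same pair were the highest Col3a1 arrays of their groups, at 5.80 and 6.19. The fibroblast marker mean was 7.49 on KO CCI replicate 22 but 7.03 on KO sham replicate 33, within the range of the other KO sham arrays (6.87 to 7.32). Over all groups that mean ran from 6.98 to 7.40 in WT sham, 6.89 to 7.32 in WT CCI, 6.87 to 7.32 in KO sham and 6.60 to 7.51 in KO CCI, and its part in the fibrillar signals was not tested.

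The sign of the type I estimates in knockout rested on KO CCI replicate 22. Without that array the knockout change was -0.10 for Col1a1 (SE 0.105) and -0.12 for Col1a2 (SE 0.089). In titles 1 to 24 it was 0.30 for Col1a1 and 0.25 for Col1a2, and in titles 25 to 42 it was -0.28 and -0.27. The wild type changes were 0.08 and 0.10 in titles 1 to 24 and 0.22 and 0.17 in titles 25 to 42. None of these values passed the test, so no direction can be given for type I collagen in knockout.

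The remaining fibrillar chains were Col2a1 and Col11a2, Col11a1 and the type V chains Col5a1, Col5a2 and Col5a3, which set the core of growing fibrils, and Col24a1 and Col27a1. None was called, with changes between -0.09 (Col24a1) and 0.04 (Col5a2) in wild type and between -0.01 (Col24a1) and 0.12 (Col5a3) in knockout. Col5a3 came nearest to a call in knockout, at a limma adjusted p of 0.052.

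The chain that fell was Col19a1, a fibril-associated collagen that in the brain is made by interneurons and takes part in the formation of their synapses. It ran from 6.93 through a median of 7.01 to 7.20 in WT sham and from 6.49 through 6.72 to 6.83 in WT CCI. In knockout it ran from 6.85 through 6.94 to 6.97 after sham and from 6.51 through 6.68 to 6.78 after injury. All injured arrays lay below all sham arrays of their genotype. Col19a1 fell by 0.35 in wild type (SE 0.052, 1.27-fold, limma adjusted p = 1.07e-05) and by 0.25 in knockout (SE 0.052, 1.19-fold, limma adjusted p = 0.000809). In wild type the call held under each alternative run, with -0.27 in titles 1 to 24 and -0.46 in titles 25 to 42. In knockout these values were -0.25 and -0.27, and the call was lost in titles 25 to 42 (limma adjusted p = 0.161) and under no other alternative.

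Cortical neuron markers were lower after injury beside it, with 7 of 11 called lower in wild type, 9 of 11 in knockout and none higher. Of all rows, 7.96% were called lower in wild type and 8.27% in knockout. Rorb, a transcription factor of layer 4 neurons, fell by 0.75 in wild type and Neurod6, a transcription factor of excitatory neurons, by 0.56. The interneuron markers Sst, Vip and Gad1, picked after their values were seen, fell by 0.52, 0.41 and 0.40 in wild type. Gad2 and Pvalb, also interneuron markers of the list, are not described here. In wild type 4 of the 11 markers were not called, and 1 had a change above 0. The list mean ran from 11.62 to 11.76 in WT sham, 11.20 to 11.54 in WT CCI, 11.68 to 11.88 in KO sham and 11.17 to 11.49 in KO CCI, and its part in the Col19a1 change was not tested.

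Among the other fibril-associated chains only Col16a1 was called, and only in knockout. It ran from 5.96 through 6.02 to 6.04 in WT sham, from 6.02 through 6.06 to 6.14 in WT CCI, from 5.84 through 5.97 to 6.05 in KO sham and from 6.00 through 6.06 to 6.12 in KO CCI, and the groups overlapped. Its change was 0.06 in wild type (SE 0.037) and 0.12 in knockout (SE 0.037, limma adjusted p = 0.0298). The knockout call was lost without any of KO sham replicates 11 and 12 and KO CCI replicates 23, 40 and 42, with adjusted p up to 0.0953.

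Col12a1, which decorates type I fibrils, was the brightest fibril-associated row. It ran from 6.67 through 6.79 to 6.85 in WT sham, from 6.72 through 6.92 to 7.07 in WT CCI, from 6.72 through 6.86 to 7.11 in KO sham and from 6.58 through 7.01 to 7.30 in KO CCI. The ranges overlapped, and its changes of 0.14 (95% confidence interval -0.02 to 0.30) and 0.10 (interval -0.06 to 0.27) were not called. Col9a1, Col9a2, Col9a3, Col14a1, Col20a1 and Col22a1 were not called either, with changes between -0.06 and 0.05 in wild type and between 0.03 and 0.10 in knockout.

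Transmembrane chains were not called in either genotype. Col25a1, a neuronal collagen whose shed ectodomain is found in amyloid plaques, was the brightest of the 4 and ran from 6.13 through 6.30 to 6.41 in WT sham, from 6.17 through 6.37 to 6.51 in WT CCI, from 6.17 through 6.24 to 6.35 in KO sham and from 6.22 through 6.43 to 6.64 in KO CCI. The groups overlapped, and the change was 0.05 in wild type and 0.19 in knockout (SE 0.067, limma adjusted p = 0.0563). Col13a1, Col17a1 and Col23a1 changed by -0.03 to -0.02 in wild type and by 0.05 to 0.12 in knockout.

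No chain of the network types VIII and X was called. Col8a2, the brightest of the 3, ran from 5.15 through 5.33 to 5.40 in WT sham, from 5.19 through 5.26 to 5.32 in WT CCI, from 5.15 through 5.30 to 5.37 in KO sham and from 5.25 through 5.29 to 5.37 in KO CCI, with overlap throughout. Col8a1 and Col10a1 changed by -0.08 and -0.04 in wild type and by -0.09 and -0.01 in knockout. Col26a1 and Col28a1 were not called in either genotype. Col26a1 ran from 5.48 through 5.53 to 5.72 in WT sham, from 5.34 through 5.52 to 5.57 in WT CCI, from 5.41 through 5.45 to 5.59 in KO sham and from 5.43 through 5.47 to 5.56 in KO CCI, again with overlap throughout.

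Of 19 measured hydroxylases and chaperones of collagen, 9 rose and 10 were not called in wild type, and 8 rose and 11 were not called in knockout. The medians over the list were 0.15 and 0.13, with 13 and 14 changes above 0, against medians of -0.02 and 0.01 over all rows. Beside the counts of this list and those below, 22.2% of rows with a named gene were called in wild type and 21.3% in knockout. With only the rows at or above the median signal fitted, 10639 of 32978 were called in wild type and 10788 in knockout. P4hb, the shared subunit of prolyl 4-hydroxylase and a disulfide isomerase, rose 2.27-fold in wild type (log2 change 1.18, SE 0.074, limma adjusted p = 4.35e-12) and 1.81-fold in knockout. Plod1, a lysyl hydroxylase, rose 1.82-fold and 1.48-fold. Serpinh1, the collagen-specific chaperone HSP47, rose by 0.45 and 0.37 on the log2 scale. Several of these proteins, P4hb and Ppib among them, also fold proteins other than collagen.

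Of 11 genes of procollagen processing and crosslinking, 3 rose and none fell in each genotype, which is near the share of named genes called. In wild type they were Bmp1, which removes the C-terminal propeptide, and the lysyl oxidase relatives Loxl1 and Loxl3, by 0.25, 0.22 and 0.20. In knockout they were Lox, Loxl1 and Loxl3, by 0.31, 0.26 and 0.17. Of 9 collagen receptors and uptake genes, Itgb1, Lair1 and Ddr1 rose in both genotypes and none fell. Itgb1, the β1 integrin chain, rose 1.94-fold in wild type and 1.71-fold in knockout, and Lair1, an inhibitory collagen receptor of leukocytes, rose 1.81-fold and 1.64-fold.

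Of 13 matrix genes whose products bind collagen, 9 rose and 2 fell in wild type and 8 rose and 2 fell in knockout. Thbs1 (thrombospondin 1) rose 3.60-fold in wild type (limma adjusted p = 3.66e-06) and Fn1 (fibronectin) 3.15-fold (limma adjusted p = 2.3e-07). Ogn and Fmod, small leucine-rich proteoglycans, fell by 1.05 and 0.55 on the log2 scale. Of 8 TGF-beta genes, 3 rose and none fell in each genotype. Tgfbi, an adhesion protein induced by TGF-beta, rose 10.9-fold in wild type and 8.89-fold in knockout, and Tgfb1, the ligand, 1.97-fold and 1.77-fold.

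**Figure D3:**
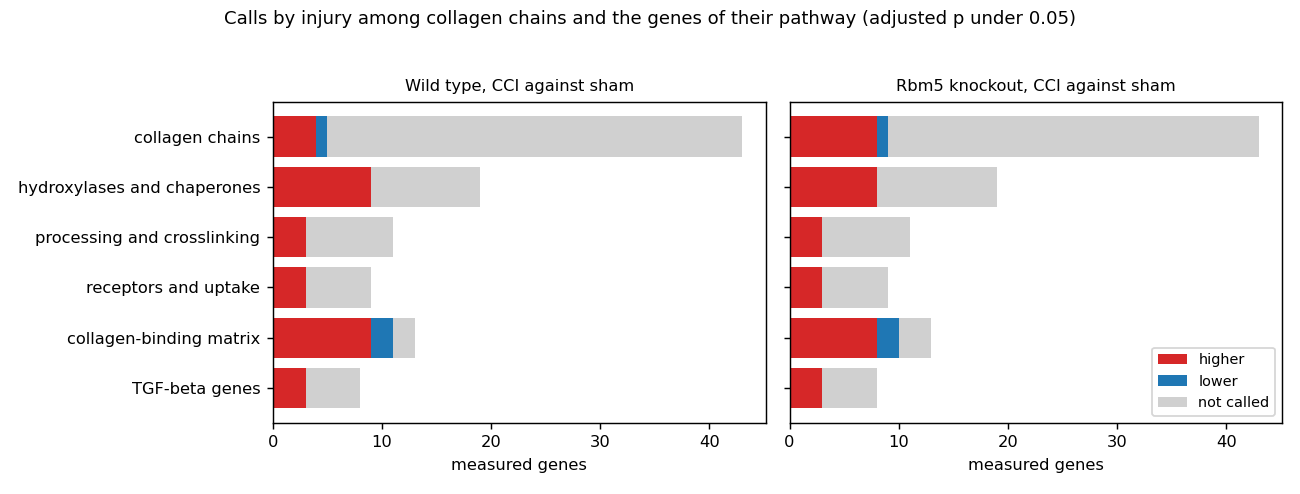
Number of measured genes called higher (red), lower (blue) or not called (grey) after injury among the 43 collagen chains and 5 lists of genes that make, process, bind or regulate collagen, in wild type and Rbm5 knockout mice. The red share is 9 of 19 hydroxylases and chaperones in wild type against 4 of 43 chains and 8.86% of all rows. The mean signal of the hydroxylases and chaperones had a median of 7.38 in WT sham. The median over the chains was 5.66, and the part of signal level in these shares was not tested.

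Markers of the cells that could supply these chains moved unevenly. Of rows with a named gene, 22.2% were called by injury in wild type and 21.3% in knockout. Of 12 endothelial markers, 7 rose and 1 fell in wild type, and 5 rose and 1 fell in knockout. Cdh5 (VE-cadherin) rose 2.21-fold and Pecam1 2.01-fold in wild type, while Slco1a4, a transporter of mature brain endothelium, fell by 0.47. The endothelial list mean ran from 8.70 to 8.99 in WT sham, 9.06 to 9.42 in WT CCI, 8.63 to 8.90 in KO sham and 8.77 to 9.08 in KO CCI, so it was higher after injury as were Col4a1 and Col4a2, and its part in their rise was not tested. The other 4 type IV chains were not called.

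Of 11 fibroblast markers, 2 rose and 3 fell in each genotype. Dcn (decorin) rose by 1.04 and Aldh1a2, an enzyme of retinoic acid synthesis in meningeal fibroblasts, by 0.41 in wild type, while Ogn fell by 1.05 and Igf2, a growth factor of the meninges, by 0.83. Of 12 mural cell markers, Tagln and Pdgfrb rose by 0.92 and 0.20 in wild type, and in knockout Tagln rose by 0.61 and Rgs5 fell by 0.33. Of 8 choroid plexus markers none was called in wild type, and in knockout only Aqp1 was called, higher by 0.23.

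Of 10 microglia and macrophage markers 8 rose in each genotype, with Cd68 13.4-fold and Lyz2 12.8-fold higher in wild type. Of 8 astrocyte markers, 4 rose and 1 fell in wild type and 3 rose and 1 fell in knockout, with Gfap higher by 4.55, Aldh1l1 by 0.73 and Slc1a2 lower by 0.37 in wild type. Of 8 oligodendrocyte lineage markers, 6 rose and 1 fell in wild type, and 2 rose, 1 fell and 5 were not called in knockout. In wild type Mag and Olig2 were higher by 1.05 and 1.00 and Cspg5 was lower by 0.21.

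Chains that share a trimer were then followed from array to array, as deviations from the mean of their group. For 9 relations over the 28 arrays, p came from 100000 permutations within groups and was adjusted over the 9. Apart from Col1a1 with Col3a1, no chains without a shared trimer were related for comparison. The part of array-wide shifts of signal in these relations was not tested. Col1a1 and Col1a2 varied together most closely, with a Pearson r of 0.971 (permutation p = 1e-05, the smallest these permutations can give, adjusted 4.5e-05) and a Spearman rho of 0.883 (permutation p = 3e-05, adjusted 0.000135). Without KO CCI replicate 22 and KO sham replicate 33 the r was 0.881, and it was 0.987 in the 16 arrays titled 1 to 24 and 0.966 in the 12 titled 25 to 42. Col1a1 and Col3a1, which share fibrils but no trimer, gave an r of 0.857 (permutation p = 2e-05, adjusted 6e-05) and a rho of 0.739 (permutation p = 0.00011, adjusted 0.00033), with 0.652 without the same 2 arrays and 0.858 and 0.868 within the runs.

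**Figure D4:**
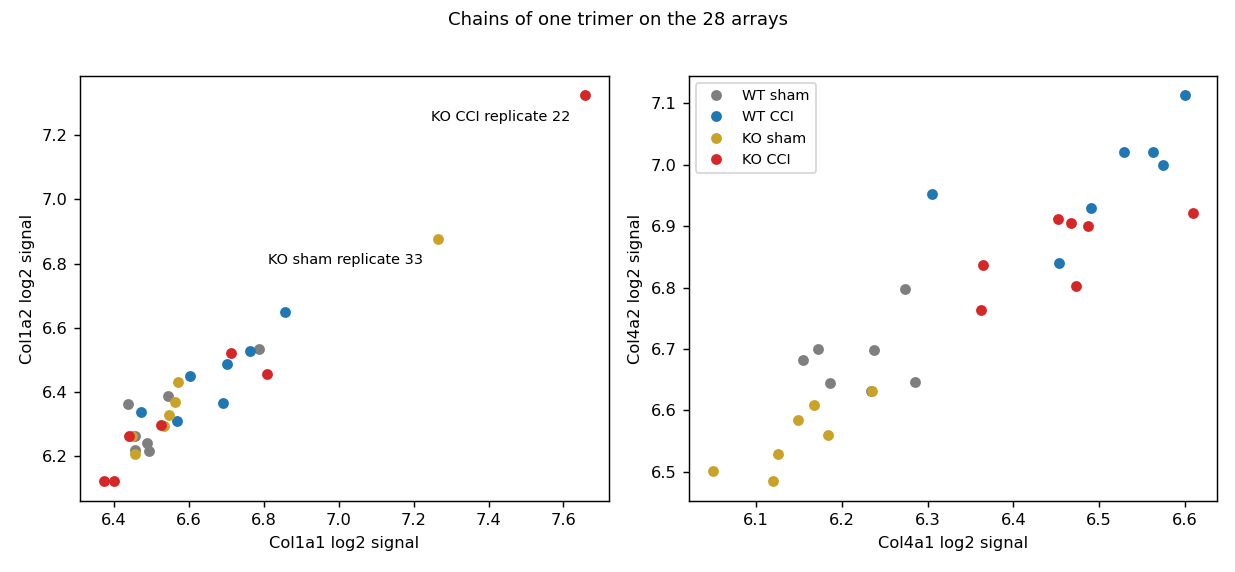
Log2 signal of Col1a2 against Col1a1 (left) and of Col4a2 against Col4a1 (right), 1 point per array and colours for the 4 groups. The type I chains lie along a line on which KO sham replicate 33 and KO CCI replicate 22 stand far from the rest, and the type IV chains separate the injured from the sham arrays.

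Col4a1 and Col4a2 were linked less tightly within groups, with an r of 0.597 (permutation p = 0.00328, adjusted 0.00585) and a rho of 0.662 (permutation p = 0.0004, adjusted 0.0009), and 0.670 without KO CCI replicate 42 and WT CCI replicate 13. Within the runs the r was 0.359 in titles 1 to 24 and 0.631 in titles 25 to 42. Col4a3 and Col4a4, the pair of glomerular chains with neighbouring genes, gave an r of 0.828 (permutation p = 1e-05, adjusted 4.5e-05) and a rho of 0.845 (permutation p = 1e-05, adjusted 9e-05), with 0.828 without 2 arrays and 0.768 and 0.827 within the runs. Both of those rows stood below the lowest array median in each group. In KO CCI, replicate 40 was the highest and replicate 22 the lowest array for both. The same held for Col10a1, Col17a1, Col22a1, Col9a2 and Col9a3, which share no trimer with them.

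The remaining pairs varied more between the runs, and Col4a5 with Col4a6 turned sign. Col4a5 and Col4a6 gave an r of 0.532 (permutation p = 0.004, adjusted 0.00585) and a rho of 0.533 (permutation p = 0.00818, adjusted 0.0123), with 0.466 without 2 arrays, but 0.658 in titles 1 to 24 and -0.652 in titles 25 to 42. Col6a1 with Col6a2 gave 0.601 (permutation p = 0.00455, adjusted 0.00585) and a rho of 0.440 (permutation p = 0.0411, adjusted 0.0462), with 0.468 without 2 arrays and 0.762 and 0.350 within the runs. Col6a1 with Col6a3 gave 0.486 (permutation p = 0.0237, adjusted 0.0266) and a rho of 0.450 (permutation p = 0.0356, adjusted 0.0457), with 0.437 without 2 arrays, 0.657 in titles 1 to 24 and -0.05 in titles 25 to 42.

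Against cell type markers, Col1a1 varied with the fibroblast marker mean, with an r of 0.610 (permutation p = 0.00358, adjusted 0.00585) and a rho of 0.621 (permutation p = 0.0031, adjusted 0.00558). Without KO CCI replicate 22 and KO sham replicate 33 the r was 0.801, and within the runs it was 0.675 and 0.645. Col4a1 showed no such relation with the endothelial marker mean over all arrays, with an r of -0.03 (permutation p = 0.891) and a rho of -0.13 (permutation p = 0.55), both the same after adjustment. That r was -0.35 without 2 arrays, yet 0.364 and 0.594 within the runs, so the pooled value and the values within the runs differ in sign.

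The genotype comparison asks whether loss of Rbm5 altered collagen expression. After sham no chain was called with limma, while 1.28% of all rows were, and 4 chains had an unadjusted p under 0.05. After injury no chain was called with limma, against 0.653% of all rows, and 2 chains had an unadjusted p under 0.05. Over both procedures 1 chain, Col4a2, was called lower in knockout, against 3.16% of all rows called in either direction and 1.80% called lower, and 4 chains had an unadjusted p under 0.05.

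Col4a2 averaged 6.69 in WT sham and 6.56 in KO sham, and 6.98 in WT CCI and 6.86 in KO CCI. Over both procedures it fell by 0.12 in knockout (SE 0.030, 1.09-fold, limma adjusted p = 0.0175), with -0.12 after sham (limma adjusted p = 0.181) and -0.12 after injury (limma adjusted p = 0.27). The difference was -0.11 in the arrays titled 1 to 24 (limma adjusted p = 0.309) and -0.14 in those titled 25 to 42 (limma adjusted p = 0.513), so its size was kept within each run and its call was not. Without the 7 arrays high in striatum or choroid plexus markers it was -0.12 (limma adjusted p = 0.107). Col4a1, read from the other strand of the region shown above, differed by -0.06 over both procedures, with a 95% confidence interval of -0.12 to 0.01 and no call, and whether the 2 chains differ in this was not tested. All 6 type IV chains had values below 0 in this comparison, from -0.12 to -0.003, and only Col4a2 was called. Of the 43 chains 20 were above 0, and of all rows 49.4%. After sham 5 of the 43 chains were above 0, against 45% of all rows, and after injury 33, against 54.1%. These counts were 7 and 26 after quantile normalization, and the same after centring on array medians.

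**Figure D5:**
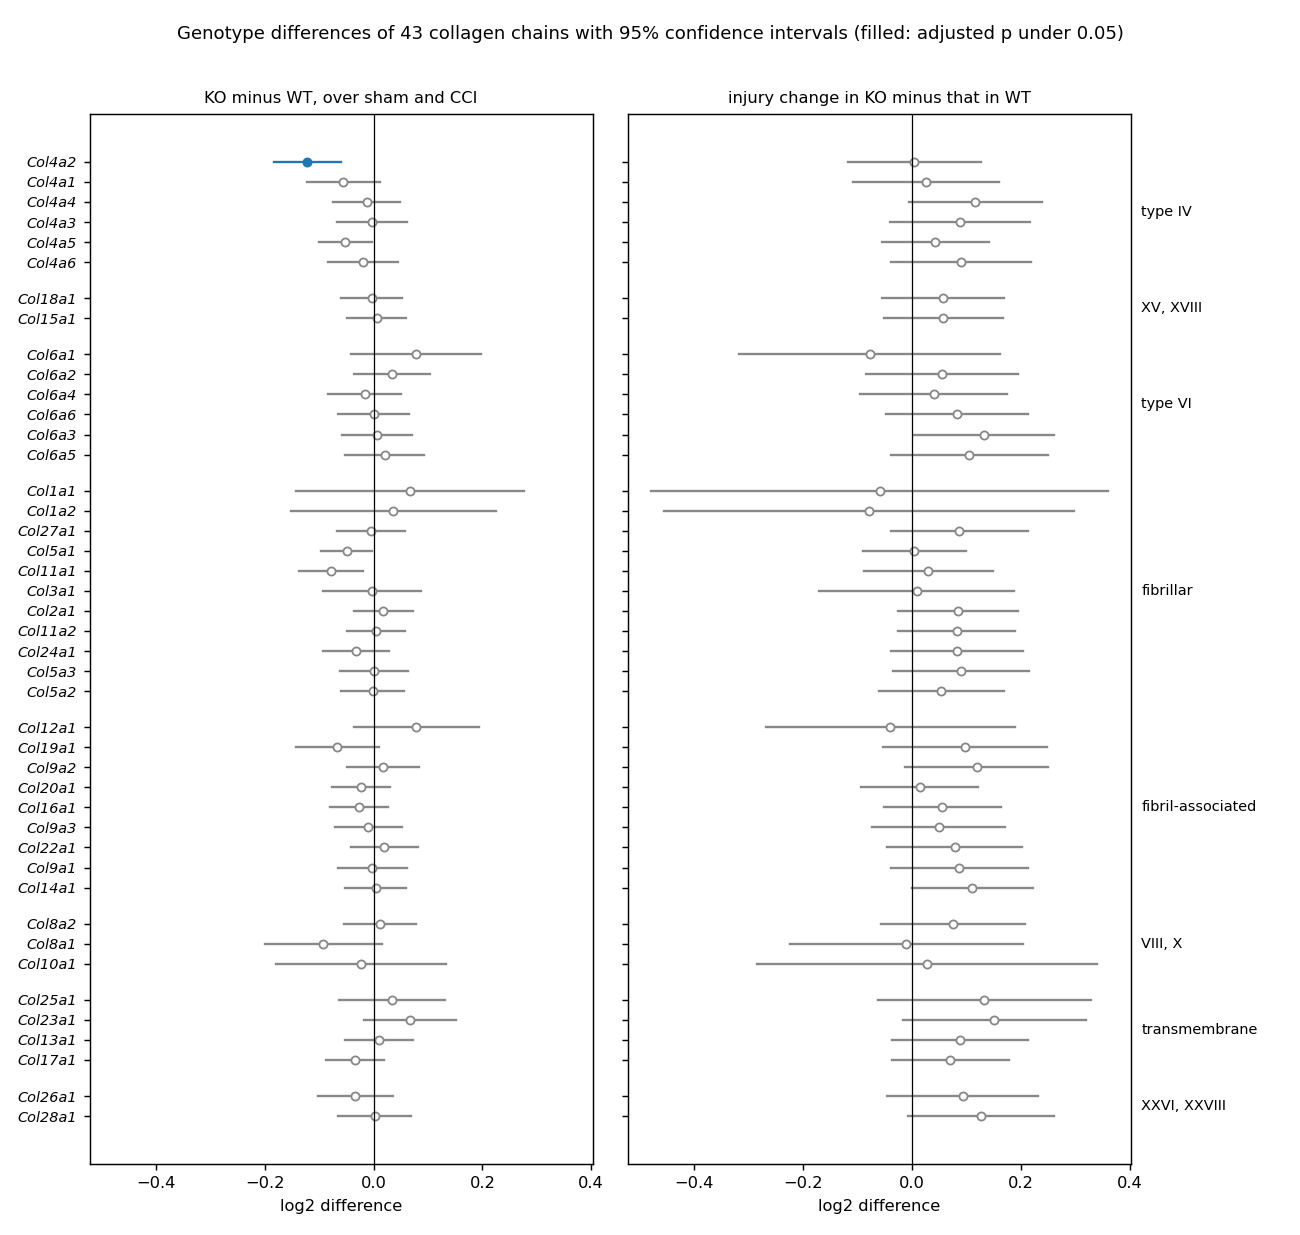
Knockout minus wild type difference over both procedures (left) and the injury change in knockout minus that in wild type (right) for the 43 chains, in log2 signal with 95% confidence intervals from limma. Col4a2 on the left, at -0.12, is the only filled point.

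In the pathway and marker lists 7 genes were called in a genotype comparison. Of all rows, 1.28% were called after sham, 0.653% after injury and 3.16% over both procedures. After injury the calls were 2 of 12 endothelial markers, 1 of 13 collagen-binding matrix genes and 1 of 8 oligodendrocyte lineage markers. After sham the call was 1 of 8 astrocyte markers. Both procedures together gave 2 of 12 endothelial markers, 1 of 13 matrix genes, 1 of 11 processing genes and 1 of 11 neuron markers. The other lists held no call, and whether the calls exceed the shares of all rows was not tested. Nid1 (nidogen 1), which links type IV collagen to laminin, was lower in knockout after injury (-0.24, SE 0.057, limma adjusted p = 0.0376), and over both procedures (-0.17, limma adjusted p = 0.0134). Bmp1 was lower over both procedures (-0.17, limma adjusted p = 0.0219). The endothelial markers Cdh5 and Pecam1 were lower in knockout after injury (-0.49 and -0.34, limma adjusted p = 0.0197 and 0.0228) and over both procedures (-0.32 and -0.21, limma adjusted p = 0.0119 and 0.0223). Of the 12 endothelial markers, 0 were above 0 after injury (median -0.242), against 54.1% of all rows. Over both procedures 1 was (median -0.121), and after sham 4 were (median -0.051). The part of these markers in the Col4a2 difference was not tested. Of the remaining lists, Gfap was higher in knockout after sham (1.36, limma adjusted p = 0.0263), Mbp lower after injury (-0.42, limma adjusted p = 0.049) and Neurod6 higher over both procedures (0.35, limma adjusted p = 0.0194).

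Whether injury acted differently on the chains in the 2 genotypes was tested as the difference between the injury changes. No chain was called with limma, and none of the 65956 rows was (0%), while 1 chain, Col6a3, had an unadjusted p under 0.05. Its injury change was larger in knockout by 0.13 (95% confidence interval 0.00 to 0.26, limma adjusted p = 0.797). For the chains called in both genotypes the differences were 0.03 for Col4a1 (interval -0.11 to 0.16), 0.00 for Col4a2 (interval -0.12 to 0.13), -0.08 for Col6a1 (interval -0.32 to 0.16), 0.01 for Col3a1 (interval -0.17 to 0.19) and 0.10 for Col19a1 (interval -0.05 to 0.25). The chains called only in knockout are thus not shown to respond differently from wild type. The median difference over the chains was 0.08, with 38 of 43 above 0, against 56.0% of all rows above 0, and 31 of 43 were above 0 after quantile normalization and after centring on array medians.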

How the data were processed

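Cortical total RNA of 28 mice, 100 ng per array, was labelled with biotin and measured on MTA 1.0 arrays, per the labels' protocols. The deposited values are log2 signal, 1 per transcript cluster, as their range of 2.21 to 19.93 shows, and they were used on that scale. The authors' software, normalization and array build are not given in the sources used here. Of 72688 rows, 6732 controls were left out. Gene names came from the platform annotation (30604 rows with 1 symbol, 641 with older names of 1 gene, 1505 naming several genes and left unnamed), 813 were updated through RefSeq gene identifiers, and 98 were dropped because the chromosomes differed.

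The 65956 rows were fitted in limma 3.58.1 (R 4.3.3, lmFit and eBayes) with the 4 groups and sex, in 6 contrasts: CCI against sham within each genotype, KO against WT within each procedure and averaged over them, and KO minus WT of the injury change. P-values were adjusted by the Benjamini-Hochberg method, and calls were made under 0.05. The p-values measure the spread between these animals. Numbers in the sample titles run from 1 to 24 and from 25 to 42, each run holding all groups. The labels call neither a batch, and each run was also fitted alone. On simulated data, 67 of the 65956 rows were given a log2 change of 0.3 in each contrast, and nearly all other rows were left unchanged. Of the 67, 23.9% were called for injury in wild type and 35.8% in knockout. The shares were 65.7% for genotype over both procedures and 5.97% for the contrast of injury changes. The adjusted p depends on how many rows change. Far fewer changed there than the 11094 rows called by injury in wild type, so the injury shares do not carry over to these data. Arrays carry no depth, and their number limits the precision.

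The chains, classes, pathway lists and marker lists were chosen with earlier results of these data known. Named were all called chains, the brightest chain of each class, the genes of each list that rose or fell most in wild type (up to 2 each way), those called by genotype, and Rbm5. Serpinh1, Ppib, Loxl3, Sst, Vip, Gad1, Ddr1 and the knockout members Lox, Rgs5 and Aqp1 were added after their values were seen. Promoter windows are RefSeq sequences of GRCm38.p6, and those of chromosome 18 were left out of the motif shares. Alternatives were other thresholds, scalings, row filters, covariates, weights and sample sets. The fits without arrays high in striatum, choroid plexus or fibroblast markers were chosen after seeing the data. Figures and relations were computed in Python 3.11.15 with pandas 2.3.3 and matplotlib 3.10.9.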

Additional observations from a re-analysis of the deposited data

Results flagged for a closer look

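In 9 of 172 combinations of chain and group, 1 array stood apart from the other 6 by a gap, as a share of the range of the group, above Dixon's critical value for 7 arrays. Chance gives about 1 in 20 such groups. Both type I chains were high on KO sham replicate 33 (Col1a1 0.85, Col1a2 0.665) and on KO CCI replicate 22 (Col1a1 0.661, Col1a2 0.667), and Col1a1 was high on WT sham replicate 2 (0.691). Col4a2 was high on WT sham replicate 26 (0.59), Col11a1 on KO sham replicate 9 (0.596) and Col6a5 on WT sham replicate 3 (0.575). Col19a1 was low on KO sham replicate 12 (0.643), and without that array its fall in knockout was still called.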

How the results depend on the processing

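No paired analysis was possible because no title number is shared between groups. Of the 15 calls of a chain in a comparison, 12 kept their call without any single array, 4 kept it under each of the other alternatives run for them, and none changed sign. The number of chains called by injury in wild type was 5, ran from 5 to 6 without single arrays and was 3 in titles 1 to 24 alone. In knockout it was 9 and ran from 6 to 11 without single arrays. It was 4 at an adjusted p under 0.01, 3 in titles 1 to 24 alone, 1 in titles 25 to 42 alone, 5 with only the arrays compared, 4 after quantile normalization and 4 after centring array medians. The 1 chain called by genotype over both procedures was 0 at an adjusted p under 0.01, 0 in each run alone and 0 without the arrays high in striatum or choroid plexus markers. Both scalings lowered the knockout calls and raised the wild type calls to 7 and 6, with Col15a1 called lower in wild type under each. Col5a3 and Col25a1 were called higher in knockout under some settings. Averaging rows per gene gave no other value because each chain had 1 row. The runs alone hold fewer arrays, and the cause of the other differences was not tested.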
